A study of Mus musculus with 8 samples.

Results

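The IFIT family of the mouse, a cluster of antiviral genes on chromosome 19, was followed through islets exposed to a STING agonist or to its solvent. The members were the 6 genes of the cluster named Ifit1, Ifit2, Ifit3, Ifit3b, Ifit1bl1 and Ifit1bl2, found by matching their Ensembl identifiers, out of 54532 genes with a count. All 6 were among the 17055 genes kept for testing. Islets, the small endocrine organs scattered through the pancreas, came from wild-type and Sting-/- mice of 25 to 30 weeks and had been picked by hand and rested overnight in culture. They were then kept for 3 h with DMSO, the solvent, or with DMXAA at 50 μg/mL, an agonist of the mouse protein, and poly(A) RNA was sequenced. The 4 groups were wild type with DMSO, wild type with DMXAA, STING KO with DMSO and STING KO with DMXAA, each of 2 libraries, and the labels name neither the allele, nor the sex or strain of the mice, nor whether islets of several mice were pooled.

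STING is an adaptor protein of the endoplasmic reticulum. It carries the signal of DNA in the cytosol to the kinase TBK1 and the transcription factor IRF3, which switch on interferon beta. Interferon in turn acts through factors that include STAT2 and IRF9 and bind a DNA element called the interferon-stimulated response element (ISRE), and IRF3 can bind ISRE-like elements as well. IFIT proteins are built from tetratricopeptide repeats and limit translation of foreign RNA. Ifit1 binds RNA whose cap lacks ribose methylation, human IFIT1 and IFIT2 bind subunits of the initiation factor eIF3, and human IFIT3 stabilises IFIT1 on RNA. Ifit3b is a near-identical copy of Ifit3, and Ifit1bl1 and Ifit1bl2 are copies related to Ifit1 whose roles are less well described.

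Library totals ran from 15624020 to 19601850 counts. The targeted gene, Sting1, had between 23 and 41 counts in the wild-type libraries and between 19 and 48 in those labelled knockout (edgeR quasi-likelihood test between genotypes under DMSO, log2 difference 0.03, SE 0.47, adjusted p = 0.984). Its count thus did not set the genotypes apart, the exons behind the reads are not known, and the libraries are called knockout-labelled here. Every direction between genotypes rests on the labels. Markers of endocrine islet cells were abundant in all libraries, with a summed level between 187800 and 368200 CPM (the count normalised for library size). The islets were whole tissue: all 12 macrophage, 10 endothelial and 10 acinar markers were counted in at least 1 library, so values are averages over a mixture in which fewer cells of a type and less RNA per cell cannot be told apart. Separate mice are not stated for the libraries of a group, so a p-value here sets a difference against variation between libraries that may be purely technical.

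The cluster spans 99.32 kb of chromosome 19 in build mm10, from 34550694 to 34650009, in GENCODE M21. Ifit2 (34550694 to 34576419), Ifit3 (34583531 to 34588731), Ifit3b (34607970 to 34613401) and Ifit1 (34640871 to 34650009) lie on the plus strand. Ifit1bl1 (34592891 to 34601956) and Ifit1bl2 (34617049 to 34640743) lie on the minus strand between them. No member overlaps another. Ifit1bl2 and Ifit1 point away from each other, and their annotated first exons are separated by only 127 bases. That stretch is shown because a pair of ISRE core matches inside it lies upstream of both genes. It is chr19:34640744-34640870 of GRCm38.p6, plus strand, from the RefSeq promoter windows, intergenic in the annotation used, with the ISRE core matches in capitals:
Ifit1bl2-Ifit1 intergenic stretch: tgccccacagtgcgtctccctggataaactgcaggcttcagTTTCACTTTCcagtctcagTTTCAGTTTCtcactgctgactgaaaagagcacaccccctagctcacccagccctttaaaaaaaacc

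The core searched was GAAANNGAAA on either strand, without overlap between the matches found. It occurs in 1131 of the 32851 mouse promoter windows of 300 bases in the RefSeq table (3.44%), and at least 2 matches occur in 74 of them (0.225%). All 6 members were found in that table, with 9 windows in all. Ifit1 had 2 matches, centred 99 and 80 bases upstream of its RefSeq start, and the first Ifit1bl2 start had the same DNA 65 and 46 bases upstream. Ifit3 had 2, at 151 and 117 bases, and Ifit3b 2, at 183 and 149 bases. Ifit1bl1 had 1 match at each of its starts, and neither window of Ifit2 nor the second of Ifit1bl2 held these letters. The Ifit2 starts in that table are 34550694 and 34551088, in a gene that runs to 34576419. DNA farther inside Ifit2 was not searched. A match is a description of letters and not a measured binding site. The upstream 250 bases of the Ifit3 pair and of the first Ifit1bl1 start are shown, 5′ to 3′ on the strand of the gene, because the copies share their matches letter for letter while Ifit1bl1 has another spacer. Capitals mark the ISRE core matches, in the orientation of the gene. Ifit3 is chr19:34583279-34583528 (plus strand), Ifit3b is chr19:34607707-34607956 (plus strand) and Ifit1bl1 is chr19:34601969-34602218 (minus strand), all GRCm38.p6 from RefSeq, upstream of the RefSeq start and outside the annotated exons of the cluster:
Ifit3: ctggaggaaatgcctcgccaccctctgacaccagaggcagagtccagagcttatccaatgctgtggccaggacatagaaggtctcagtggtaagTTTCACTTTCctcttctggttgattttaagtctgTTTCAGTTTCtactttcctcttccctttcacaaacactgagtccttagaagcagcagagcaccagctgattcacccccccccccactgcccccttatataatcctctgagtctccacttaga
Ifit3b: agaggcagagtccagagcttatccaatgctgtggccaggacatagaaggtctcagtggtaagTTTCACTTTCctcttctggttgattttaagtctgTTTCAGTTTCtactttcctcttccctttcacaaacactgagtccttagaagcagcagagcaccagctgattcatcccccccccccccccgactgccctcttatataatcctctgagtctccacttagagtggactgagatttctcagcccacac
Ifit1bl1: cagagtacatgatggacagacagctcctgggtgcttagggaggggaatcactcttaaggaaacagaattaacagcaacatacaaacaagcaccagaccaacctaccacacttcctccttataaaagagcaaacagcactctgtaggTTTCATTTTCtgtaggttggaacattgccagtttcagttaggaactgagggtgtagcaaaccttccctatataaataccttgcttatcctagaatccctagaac

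Over 218 aligned bases the Ifit3 and Ifit3b stretches were identical at 216 (99.1%), and both carry TTTCACTTTC followed by TTTCAGTTTC. The same letters stand upstream of Ifit1 in the same order. Ifit1bl1 carries TTTCATTTTC. The TATA box letters TATAAA, searched on either strand and present in 13.6% of all windows, were found upstream of Ifit1bl1 at both starts and upstream of the second Ifit1bl2 start.

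**Figure D1:**
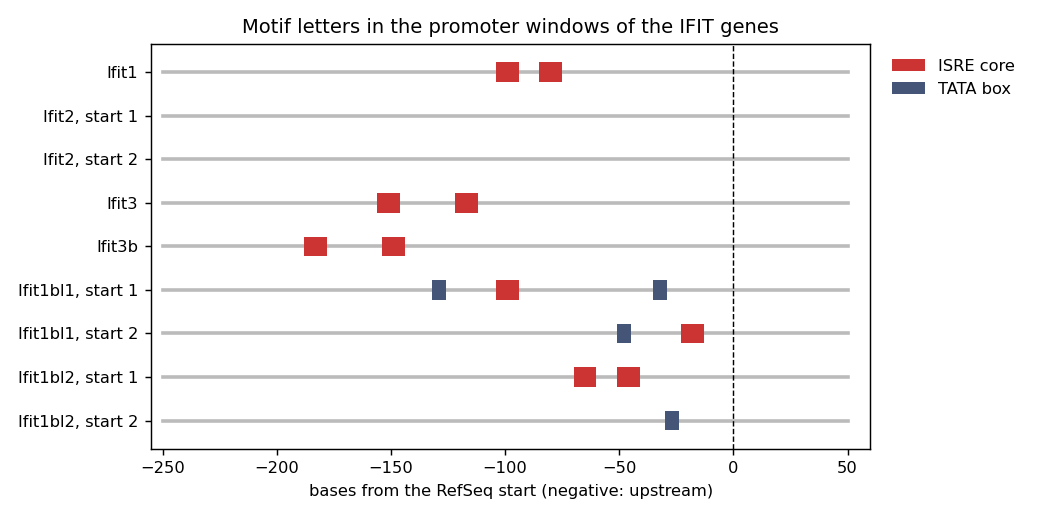
Positions of ISRE core and TATA box letters in the 9 promoter windows of the IFIT genes, in bases from the RefSeq start (dashed line), with grey lines for the 300 bases searched. Ifit1, Ifit3, Ifit3b and the first start of Ifit1bl2 hold 2 ISRE core matches each, and the windows of Ifit2 hold none of these letters. DNA outside the windows was not searched.

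In wild-type islets DMXAA raised 5 of the 6 members within 3 h, by 12-fold (Ifit1bl1) to 137-fold (Ifit2), where 1.11% of all genes rose. In knockout-labelled islets none of the 6 passed the same test, where 0.164% of all genes rose and 0.211% fell. Under DMXAA the same 5 genes were lower there than in wild-type islets, as were 1.37% of all genes. The sixth, Ifit1bl2, was sparse, and its calls depended on single libraries. The family as a whole went from 26.1 ± 5.77 to 1343 ± 121 CPM in wild-type islets (mean ± SD, n = 2) and stood at 21.9 ± 4.17 and 26.0 ± 6.75 CPM in the knockout-labelled groups. It took 0.125% and 0.151% of all counts in the wild-type DMXAA libraries and between 0.00181% and 0.00333% in the other 6. The exact 95% binomial intervals of the former, 0.123% to 0.126% and 0.149% to 0.153%, did not meet, and such intervals cover counting error only.

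Ifit1, the sensor of undermethylated caps, was counted 212 and 275 times in wild-type islets given the solvent and 7932 and 8654 times in those given DMXAA. Knockout-labelled islets yielded 155 and 167 counts without the agonist, then 297 and 152 with it. Only the wild-type DMXAA libraries stood apart, since the other 6 lay between 8.89 and 14.4 CPM. For this and the other members, the share of all genes that separate so was not counted. The mean went from 12.3 ± 1.68 to 439 ± 16.5 CPM in wild-type islets, a 35.5-fold rise (95% interval 25.4 to 49.6; log2 fold change 5.15, SE 0.22, edgeR adjusted p = 3.68e-08). Among all genes tested, 1.11% rose in this comparison and 0.375% fell.

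Ifit2, whose human counterpart binds eIF3, was counted 36 and 97 times without and 8761 and 8621 times with DMXAA in wild-type islets. The knockout-labelled pairs gave 32 and 25 counts, then 54 and 35. It had the largest fitted fold change of the 6 members, from 3.33 ± 2.04 to 460 ± 16.3 CPM (137-fold, interval 83.3 to 224; log2 fold change 7.10, SE 0.33, adjusted p = 2.50e-07). The wild-type DMSO libraries differed from each other, and the log2 fold change was 6.60 without replicate 1 of that group and 7.92 without replicate 2. The Ifit2 to Ifit1 count ratio was 0.262 ± 0.129 without and 1.05 ± 0.0735 with DMXAA in wild-type islets, against 0.178 ± 0.0396 and 0.206 ± 0.0339 in the knockout-labelled groups. Ifit2 thereby made up 37.5% and 31.4% of the IFIT counts of the wild-type DMXAA libraries, and between 7.49% and 15.8% of those of the other 6, with no overlap. No test was made of this ratio.

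**Figure D2:**
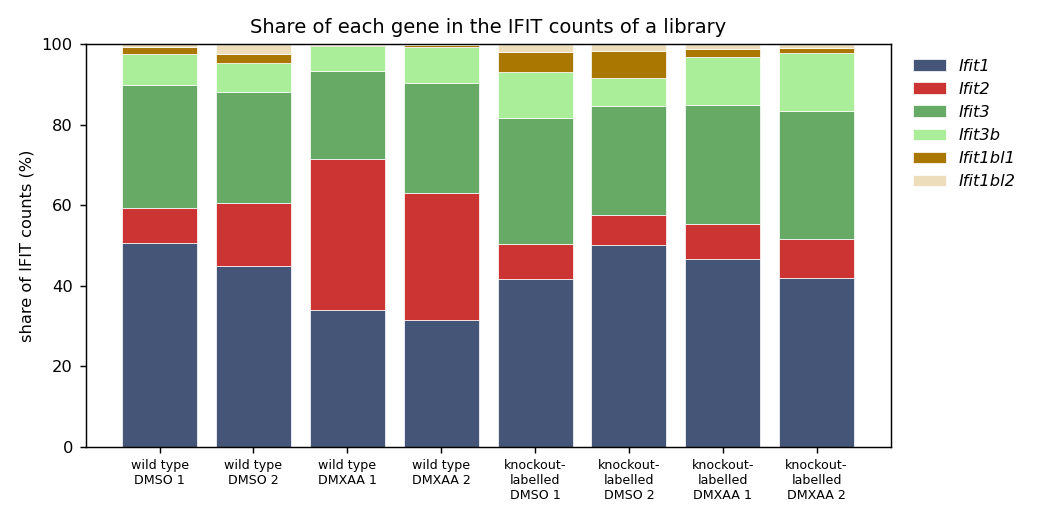
Share of each gene in the IFIT counts of each library, in percent, as stacked bars. Ifit2 takes 37.5% and 31.4% in the wild-type DMXAA libraries and at most 15.8% elsewhere.

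Ifit3, the partner of Ifit1 in human cells, went from 128 and 169 counts to 5074 and 7545 in wild-type islets, while the knockout-labelled islets gave 116 and 91 with solvent, then 188 and 115 with DMXAA. Its copy Ifit3b had 33 and 44, 1449 and 2436, 43 and 23, and 77 and 53 counts in the same order of groups. Both wild-type DMXAA libraries were again above all others for each gene, and the second of them was higher than the first, by 1.44 times for Ifit3 and 1.63 times for Ifit3b, where Ifit1 and Ifit2 differed by 1.05 and 0.951 times. Ifit3 rose 44.2-fold (interval 30.1 to 64.9; log2 fold change 5.46, SE 0.26, adjusted p = 5.51e-08) and Ifit3b 52.2-fold (31.8 to 85.8; 5.71, SE 0.33, adjusted p = 8.32e-07).

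The split between these copies is uncertain. Their longest transcripts were 98.0% identical over 1697 aligned bases, and 18.5% of the 150-base windows of Ifit3, the length of a read, occur unchanged in Ifit3b. How the counting treated reads that match several places is not given in the sources used here. In wild-type islets Ifit3b made up 20.5% and 20.7% of the pair's counts before, and 22.2% and 24.4% after the agonist. In the knockout-labelled libraries it made up 27.0% and 20.2% with DMSO and 29.1% and 31.5% with DMXAA. The intervals of the knockout-labelled DMXAA shares, 23.7% to 34.9% and 24.6% to 39.2%, met those of wild-type DMSO, 14.5% to 27.6% and 15.4% to 26.7%. Neither met that of the first wild-type DMXAA library, 21.2% to 23.2%, while both met that of the second, 23.6% to 25.3%. Both knockout-labelled DMXAA shares lay above all 4 wild-type shares. In wild-type islets the share thus lay between 20.5% and 24.4% while the counts of the pair rose.

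Ifit1bl1 went from 7 and 14 counts to 103 and 142 in wild-type islets, and knockout-labelled islets gave 18 and 22 with solvent, then 12 and 4 with DMXAA. It rose 12-fold in wild-type islets, from 0.528 ± 0.227 to 6.47 ± 1.30 CPM (interval 6.39 to 22.5; log2 fold change 3.59, SE 0.42, adjusted p = 0.000274). Ifit1bl2 was sparse, with 3 and 15 counts at baseline and 36 and 45 after DMXAA in wild-type islets, against 8 and 6, then 8 and 4, in knockout-labelled ones. Its difference in wild-type islets did not pass (4.64-fold, interval 2.06 to 10.5; log2 fold change 2.21, SE 0.54, adjusted p = 0.0754). Its wild-type DMXAA libraries were the highest of the 8, but this adds no support, because the gene passed the filter through that group. Without wild-type DMSO replicate 2 the log2 fold change was 3.71 and passed (adjusted p = 0.0230), and without replicate 1 of that group it was 1.54 (adjusted p = 0.584). Ifit1bl2 reached the minimum of the filter, 0.537 CPM in 2 libraries, through the wild-type DMXAA group and 1 other library, so its high group decided whether it was tested. Ifit1bl1 and Ifit1bl2 were 90.5% identical over 2165 bases and shared no 150-base window. Ifit1bl2 shared 31 such windows with Ifit1, 0.963% of its own and 1.24% of those of Ifit1. Ifit1 had far more counts, and the part of reads from such windows in the Ifit1bl2 counts was not tested.

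**Figure D3:**
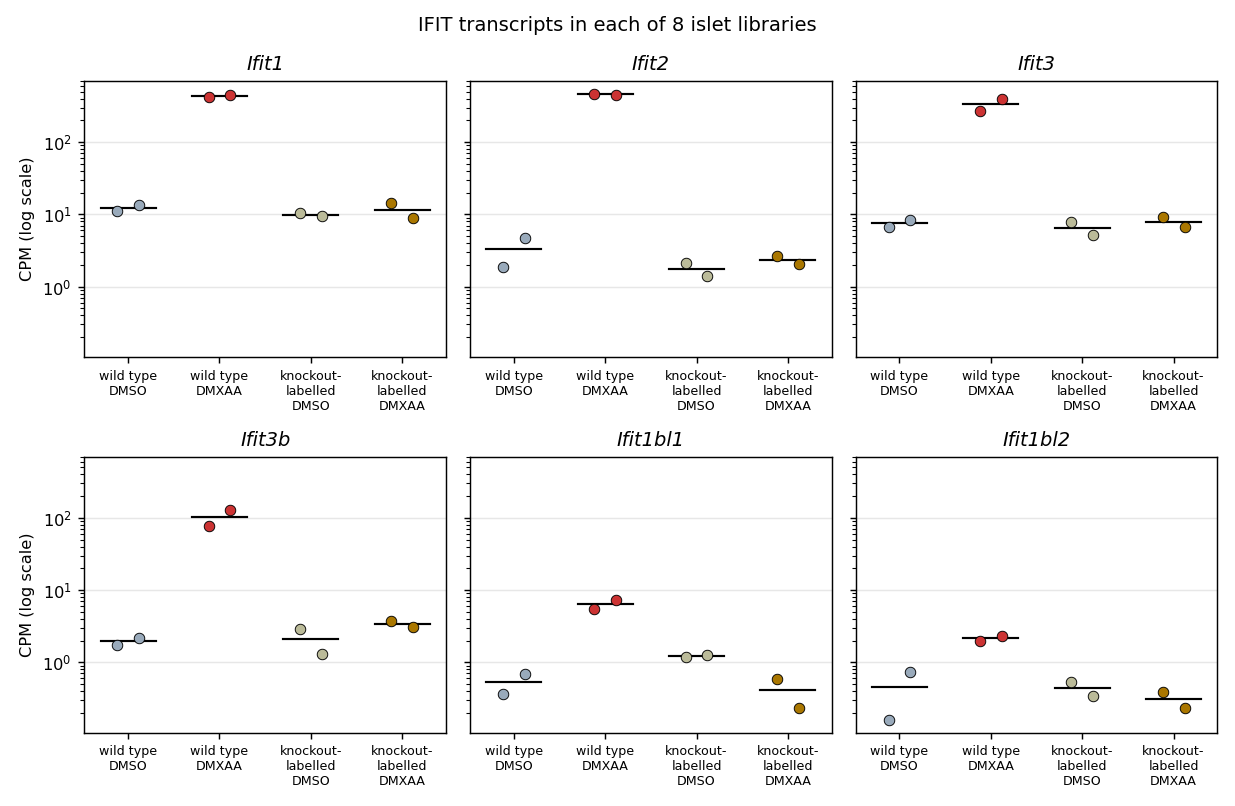
Level of each IFIT gene in the 8 libraries, in CPM on a log axis, with 1 point per library and a bar at the group mean. The wild-type DMXAA libraries lie above the other 6 for every gene, from 1.94 and 2.34 CPM for Ifit1bl2 to 472 and 449 CPM for Ifit2. The share of all genes that separate so was not counted, and Ifit1bl2 passed the filter through this high group and 1 other library.

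Levels of different genes were compared as CPM per kilobase of exon. In wild-type DMXAA islets Ifit3 stood at 191 ± 48.4, Ifit1 at 165 ± 6.21 and Ifit2 at 117 ± 4.15 CPM per kb, followed by Ifit3b at 51.2 ± 17.2, Ifit1bl1 at 2.86 ± 0.577 and Ifit1bl2 at 0.636 ± 0.0848. Ifit3 and Ifit1 changed places between the libraries and did not differ beyond their spread, while each later step in the order was the same in both. With DMSO, wild-type islets held Ifit1 at 4.65 ± 0.633 and Ifit3 at 4.31 ± 0.641 CPM per kb, which overlapped, and Ifit3b at 0.975 ± 0.152 and Ifit2 at 0.849 ± 0.518, which overlapped too. Ifit1bl1 and Ifit1bl2 were at 0.234 ± 0.100 and 0.133 ± 0.122. In the knockout-labelled DMSO and DMXAA groups Ifit1 was at 3.73 ± 0.234 and 4.38 ± 1.46, Ifit3 at 3.69 ± 1.05 and 4.54 ± 0.962, Ifit3b at 1.04 ± 0.553 and 1.71 ± 0.222, and Ifit2 at 0.452 ± 0.129 and 0.594 ± 0.102 CPM per kb. Ifit1bl1 was at 0.541 ± 0.0142 and 0.180 ± 0.109, and Ifit1bl2 at 0.130 ± 0.0407 and 0.0923 ± 0.0322. Ifit2, next after Ifit1 and Ifit3 in both wild-type DMXAA libraries, was thus below Ifit3b in all 4 knockout-labelled libraries.

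In knockout-labelled islets 0 of the 6 members passed the test of DMXAA against DMSO with edgeR, 1 had an unadjusted p under 0.05 and 0 passed with DESeq2. Of all genes, 0.164% rose and 0.211% fell. The log2 fold changes were 0.24 for Ifit1, 0.42 for Ifit2, 0.31 for Ifit3 and 0.75 for Ifit3b (edgeR adjusted p = 0.915, 0.934, 0.904 and 0.745). The 95% intervals reached 1.63-fold for Ifit1, 2.5-fold for Ifit2, 1.83-fold for Ifit3 and 3.0-fold for Ifit3b, so rises up to those sizes lie within the error. Without knockout-labelled DMSO replicate 1 the Ifit3b value was 1.39, and without replicate 2 it was 0.26. The member with the low unadjusted p was Ifit1bl1, which averaged 1.22 ± 0.0321 CPM before and 0.408 ± 0.245 CPM after the agonist (log2 fold change -1.52, SE 0.59, adjusted p = 0.567; -2.35 without DMXAA replicate 1 and -1.05 without replicate 2). Its libraries did not overlap, and the share of all genes that separate so was not counted. The sum of 10 lymphocyte markers also fell, from 36.3 and 35.5 CPM to 5.04 and 10.1 CPM. Of the 6 tested, 3 passed as lower with edgeR and 1 passed with DESeq2. The sum of 10 acinar markers went from 1415 and 2112 to 381 and 326 CPM. Of these markers 0 passed with edgeR (7 at an unadjusted p under 0.05, 2 with DESeq2). Their sum also differed within the wild-type DMSO group, at 6156 and 1262 CPM. All 12 macrophage, 10 endothelial and 7 fibroblast markers had positive log2 fold changes in the same comparison (median over all genes -0.00058). Of them 0 macrophage, 2 endothelial and 0 fibroblast markers passed with edgeR, where 0.164% of all genes rose. The share of all genes with a positive value was not counted. The part of these cell types in the Ifit1bl1 value was not tested.

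The difference between the genotypes' responses was tested directly, as the knockout-labelled minus the wild-type log2 fold change. It was negative and passed for 5 of the 6 members, where 0.528% of all genes did so. The values were -4.91 (SE 0.30, edgeR adjusted p = 2.92e-06) for Ifit1, -6.68 (SE 0.56, 0.000113) for Ifit2, -5.15 (SE 0.35, 5.54e-06) for Ifit3, -4.96 (SE 0.53, 0.000446) for Ifit3b and -5.11 (SE 0.74, 0.00293) for Ifit1bl1. Ifit1bl2 did not pass, at -2.64 (SE 1.04, adjusted p = 0.443), and was at -1.97 without wild-type DMSO replicate 1 and -4.13 without replicate 2. Without knockout-labelled DMSO replicate 1 the Ifit3b value was -4.32, and without knockout-labelled DMXAA replicate 1 that of Ifit1bl1 was -5.93; without wild-type DMSO replicate 2 that of Ifit2 was -7.50.

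**Figure D4:**
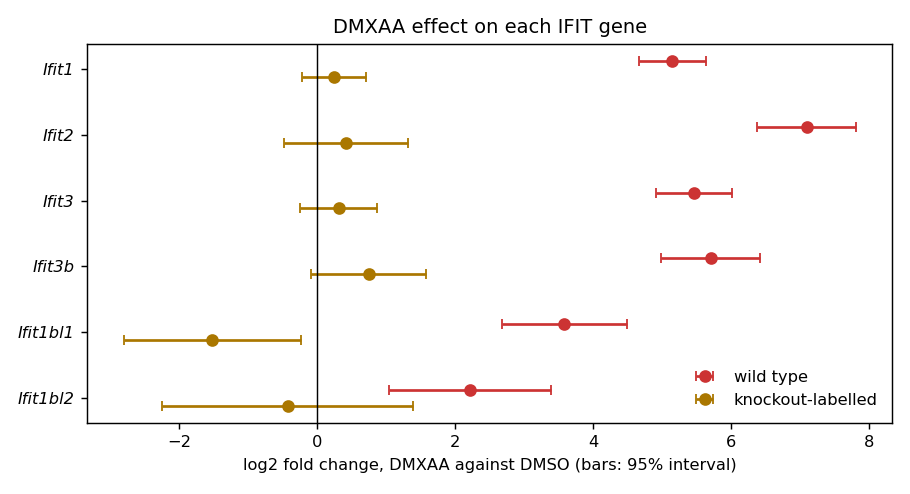
Log2 fold change with DMXAA against DMSO for each IFIT gene in wild-type and knockout-labelled islets, with 95% intervals from the edgeR fit over 8 libraries. The intervals of the 2 genotypes are apart for Ifit1, Ifit2, Ifit3, Ifit3b and Ifit1bl1 and overlap for Ifit1bl2.

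Compared under DMXAA, Ifit1, Ifit2, Ifit3, Ifit3b and Ifit1bl1 were lower in knockout-labelled islets, where 1.37% of all genes were lower. Ifit1bl2 passed too but is not counted with them, since its high level in the wild-type DMXAA group decided whether it was tested. This comparison, the wild-type response and the difference of responses share the wild-type DMXAA libraries. Wild-type islets held 37.5 times as much Ifit1 (log2 difference -5.23, SE 0.22, edgeR adjusted p = 3.26e-08), 195 times as much Ifit2 (-7.61, 2.04e-07), 41.8 times as much Ifit3 (-5.39, 6.34e-08) and 29.8 times as much Ifit3b (-4.90, 1.77e-06). For Ifit1bl1 the ratio was 15.1 (-3.92, adjusted p = 0.000182; -4.75 without knockout-labelled DMXAA replicate 1). For Ifit1bl2 it was 6.63 (-2.73, adjusted p = 0.0264), and this call was lost on leaving out any single wild-type DMXAA or knockout-labelled library (adjusted p = 0.0525 to 0.185) and with the older form of the fit (adjusted p = 0.0667). Under DMXAA the endothelial markers summed to 1391 and 1275 CPM in knockout-labelled islets and to 700 and 730 CPM in wild-type islets. All 10 markers had positive log2 differences (median 0.82, against 0.035 over all genes), and 7 passed as higher in knockout-labelled islets with edgeR. The share of all genes that passed as higher is not given here. The acinar markers summed to 381 and 326 against 1420 and 2637 CPM, and 0 of 10 passed with edgeR (7 at an unadjusted p under 0.05, 6 with DESeq2). Their part in the difference was not tested. Under DMSO 0 of 6 members differed between genotypes with edgeR, 1 had an unadjusted p under 0.05 and 0 passed with DESeq2, where 0.182% of all genes were higher and 0.041% lower in knockout-labelled islets. The member with the low unadjusted p was Ifit2, at 3.33 ± 2.04 CPM in wild-type and 1.77 ± 0.508 CPM in knockout-labelled islets, with overlapping libraries (log2 difference -0.93, SE 0.39, adjusted p = 0.367). It was -1.45 without wild-type DMSO replicate 1 and -0.11 without replicate 2.

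The rise of the family was set beside the cell types of the preparation. The 12 macrophage markers summed to 129 and 130 CPM where DMXAA met wild-type islets and to between 145 and 247 CPM in the other 6, and 10 endothelial markers to 700 and 730 against 762 to 1391 CPM. Both sums were thus lowest in the group where the IFIT genes were highest. The part of these cell types in the rise of the family was not tested. Of the macrophage markers 0 of 12 passed in wild-type islets with edgeR (3 at an unadjusted p under 0.05, 0 with DESeq2). Of the endothelial markers 3 of 10 fell, where 0.375% of all genes did so and 1.11% rose. Wild-type log2 fold changes of the macrophage markers ran from -2.05 to 0.46 (median -0.47), with 5 of the 12 positive. Adgre1, which encodes the macrophage surface protein F4/80, averaged 5.46 ± 1.73 CPM in solvent libraries against 2.40 ± 0.354 CPM in agonist libraries (log2 fold change -1.17, SE 0.36, adjusted p = 0.218). Which cells of the islet carried the IFIT transcripts cannot be read from these counts.

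Genes around the cluster did not pass the test. Within 500 kb lie 11 other protein-coding genes, of which 8 were tested, and with DMXAA in wild-type islets their log2 fold changes ran from -0.89 to 0.64 (smallest edgeR adjusted p = 0.452). None of the 8 passed, 0 had an unadjusted p under 0.05 and 0 passed with DESeq2. Among all genes tested, 1.11% rose and 0.375% fell in that comparison. The nearest neighbours were Slc16a12, which encodes a monocarboxylate transporter, 18394 bases beyond Ifit1 (log2 fold change -0.04), and Lipa, which encodes lysosomal acid lipase, 23220 bases before Ifit2 (-0.44). Ch25h, the cholesterol 25-hydroxylase gene, lies 75530 bases before the cluster and was at 0.64 (SE 0.39). Farther off, Stambpl1 was at -0.32, Acta2 at -0.89, Fas at 0.58, Pank1 at -0.26 and Kif20b at -0.78.

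**Figure D5:**
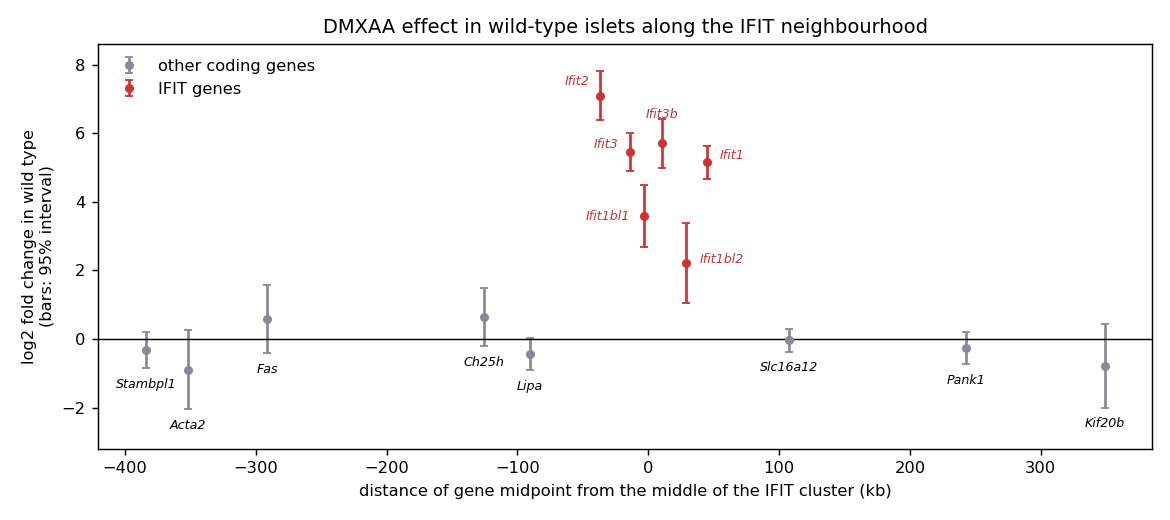
Log2 fold change with DMXAA in wild-type islets, with 95% intervals, for the IFIT genes and the 8 other tested coding genes within 500 kb, by the distance of each gene's midpoint from the middle of the cluster in kb. The 8 other genes lie between -0.89 and 0.64, and the IFIT genes between 2.21 and 7.10.

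Genes of the pathway that induces the family were taken from a list. Of 17 tested genes of STING, interferon induction and interferon signalling, 8 rose in wild-type islets and 0 fell (median log2 fold change 0.80, against -0.00066 over all genes). In knockout-labelled islets 0 of 17 passed (4 at an unadjusted p under 0.05, 0 with DESeq2), and under DMXAA 8 were lower there. The difference of responses itself passed for 4 of 17 (5 with DESeq2), among them Irf1, Stat2 and Socs1, and did not for Ifnb1, Irf7, Usp18 and Irf9. Among all genes 1.11% rose and 0.375% fell in wild-type islets, and 0.164% rose and 0.211% fell in knockout-labelled ones. Under DMXAA 1.37% were lower in the latter, and 0.528% had a negative difference of responses that passed. Ifnb1, the interferon beta gene, had 0 counts in both solvent libraries of wild-type islets, then 536 and 261 with the agonist. Knockout-labelled islets gave 1 and 0, then 3 and 0. Ifnb1 passed the filter only through the wild-type DMXAA group, so its high group decided whether it was tested. It is nevertheless counted among the 8 that rose and the 8 that were lower under DMXAA. The first wild-type DMXAA library thus had more Ifnb1 but less Ifit3 and Ifit3b than the second. The ISRE-binding factors Stat2 and Irf9 rose by 1.30 and 0.80 (edgeR adjusted p = 0.00280 and 0.0310). Irf7 rose by 1.53 and Irf1 by 1.79, and Irf3 was at 0.26 (SE 0.16, adjusted p = 0.537). The brakes Usp18 and Socs1 rose by 1.504 and 2.99. Stat2 went from 73.8 ± 9.99 to 182 ± 18.6 CPM and Irf9 from 44.0 ± 3.35 to 76.3 ± 17.6 CPM.

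Other antiviral effectors directed at RNA were examined next. Of 20 tested, 13 rose in wild-type islets and 0 fell (median log2 fold change 1.75), 0 passed in knockout-labelled islets (1 at an unadjusted p under 0.05, 0 with DESeq2) and 15 were lower there under DMXAA. The difference of responses passed for 9 of 20 (11 with DESeq2). The shares over all genes were 1.11% up and 0.375% down in wild-type islets, and 0.164% up and 0.211% down in knockout-labelled ones. They were 1.37% for lower under DMXAA and 0.528% for a negative difference of responses. The largest rises were those of Rsad2, which encodes viperin, at 5.63, Oasl1, which represses Irf7 translation, at 5.28, Isg15, a ubiquitin-like modifier, at 5.06, and the GTPases Mx2 and Mx1 at 4.50 and 4.23. Oasl2 rose by 2.56. Mx1 and Mx2, and Oasl1 and Oasl2, are related copies. Ifit2 at 7.10 and Ifit3b at 5.71 exceeded these fitted values, although the differences between genes were not tested.

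Genes for the caps and factors that IFIT proteins act upon did not pass in wild-type islets, where 1.11% of all genes rose and 0.375% fell. Of 8 genes of cap formation and cap methylation 0 passed in wild-type islets with edgeR (2 at an unadjusted p under 0.05, 0 with DESeq2; median log2 fold change -0.04). Cmtr1, the enzyme that adds the ribose methyl group by which Ifit1 tells self from foreign RNA, averaged 5.26 ± 0.824 CPM in the solvent group against 5.57 ± 0.727 CPM in the agonist group (log2 fold change 0.09, SE 0.28, adjusted p = 0.925). Of 14 eIF3 subunits 0 passed (1 at an unadjusted p under 0.05, 0 with DESeq2; median 0.02), and their summed level lay between 1634 and 2057 CPM in every library.

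Across the 8 libraries the pattern of the members was shared. Pearson's r with Ifit1 on log2(CPM + 1) was 0.997 for Ifit2, 0.997 for Ifit3, 0.987 for Ifit3b, 0.949 for Ifit1bl1 and 0.957 for Ifit1bl2. The 6 other genes most like Ifit1 by this measure were Cmpk2, Parp14, Ifi207, Oasl1, Igtp and Tbx2, with r between 0.9932 and 0.9938. These coefficients are descriptions that rest on the same 2 wild-type DMXAA libraries standing apart.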

How the data were processed

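Poly(A) RNA of 8 islet libraries was analysed as gene counts. The authors deposited 1 raw count per gene and library, and HISAT2, HTSeq and build mm10 are named without versions, per the submitters' processing notes. For the annotation release, strand setting and treatment of multiply mapped reads, nothing is given in the sources used here. Symbols, coordinates and transcripts came from GENCODE M21, which holds 54495 of the 54532 identifiers, and promoter windows from RefSeq (GRCm38.p6).

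Counts were filtered with filterByExpr (10 counts, total of at least 15), which left 17055 genes, and scaled by TMM in edgeR 4.0.16 (R 4.3.3). CPM was computed here from the deposited counts. A quasi-likelihood model over all 8 libraries (legacy=FALSE, robust, 4 residual degrees of freedom, biological coefficient of variation 17.1%) gave 5 contrasts, with Benjamini-Hochberg adjusted p under 0.05 over all genes as the threshold. SEs were derived from the F statistic. The fit was tested on simulated data.

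Libraries of a group differed by more than sampling noise (chi-square per degree of freedom 7.41 to 59.8). The members and gene lists were chosen with earlier results of these data known. Named genes were all members, the genes of each list with the largest called wild-type changes (up to 6), a set of genes named whether called or not (Ifnb1, Irf3, Stat2, Irf9, Cmtr1 and Adgre1; another is not reported here), Sting1, neighbouring coding genes with a mean of at least 1 CPM and the 6 genes most like Ifit1. Alternatives were DESeq2 1.42.0 and its size factors, no filter, the older form of the fit and only the groups compared. Others were summed copies (Ifit3 with Ifit3b, Ifit1bl1 with Ifit1bl2), a replicate block and leaving out each library. Percentages of counts carry exact binomial intervals.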

Additional observations from a re-analysis of the deposited data

Results flagged for a closer look

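The response to DMXAA differed between wild-type and knockout-labelled islets for 5 IFIT genes by the edgeR test of the difference itself. Among all genes, 0.528% had a negative difference that passed. The knockout-labelled minus wild-type log2 fold change was -4.91 for Ifit1, -6.68 for Ifit2, -5.15 for Ifit3, -4.96 for Ifit3b and -5.11 for Ifit1bl1. In each case the wild-type libraries with DMXAA lay above the other 6 libraries, and the share of all genes that separate so was not counted. Groups of 2 libraries are too small for a search for single outlying libraries, and none was made.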

How the results depend on the processing

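In wild-type islets 5 to 6 of the 6 members rose under the alternatives that were run, and 5 to 6 had a response that differed by genotype. Under DMXAA 5 to 6 were lower in knockout-labelled islets, while 0 passed in knockout-labelled islets and 0 between genotypes under DMSO. In the main fit 1.11% of all genes rose in wild type, 0.528% had a negative difference that passed and 1.37% were lower under DMXAA. In knockout-labelled islets 0.164% rose and 0.211% fell, and under DMSO 0.182% were higher there and 0.041% lower. With copies summed, Ifit1bl1 and Ifit1bl2 carry the value of their sum, which these counts hold under both names. The 6 under DMXAA include Ifit1bl2, whose high group decided whether it was tested in the main fit. With only the groups compared, the difference of responses was not fitted, and Ifit1bl2 was not tested in knockout-labelled islets or under DMSO. Ifit1bl2 was the member whose calls moved. In wild type it passed with no filter (edgeR adjusted p = 0.0197), and under DMXAA it did not pass with the older form of the fit (adjusted p = 0.0667). With copies summed, the wild-type value is that of Ifit1bl1 and Ifit1bl2 together (3.12, edgeR adjusted p = 0.000571). Ifit1bl1 gave 103 and 142 counts to that sum in the wild-type DMXAA libraries and Ifit1bl2 gave 36 and 45, so the call is not one of Ifit1bl2 alone. Signs that turned all belonged to values that did not pass. On leaving out each library, the Ifit1 response in knockout-labelled islets ran from -0.15 to 0.56. Between genotypes under DMSO, Ifit3 ran from -0.56 to 0.021, Ifit3b from -0.60 to 0.53 and Ifit1bl2 from -0.78 to 1.40, and with copies summed the last 2 were at -0.16 and 0.74. The number of all genes called moved more. For DMXAA in knockout-labelled islets it was 64 and became 154 with DESeq2, 177 with no filter, 29 with the older form and 129 with only the groups compared. For the difference of responses it was 204, and 312 with DESeq2. Under DMSO it was 38, and 155, 159, 17 and 25 under the same 4 alternatives, and under DMXAA it was 407, and 616 with DESeq2. Leaving out each library gave 160 to 994 genes in wild type (253 with all), 3 to 129 in knockout-labelled islets, 87 to 304 for the difference, 3 to 240 under DMSO and 205 to 674 under DMXAA. The causes were not tested. The labels do not say that replicate numbers pair the libraries, and deviations of same-numbered libraries correlated at 0.0422 in wild-type and 0.0391 in knockout-labelled islets. With a replicate block the calls were 259, 61, 217, 56 and 417 genes and 5, 0, 5, 0 and 6 members. With the numbers of the knockout-labelled libraries crossed, a fit added after the data were seen, 40 genes and 0 members differed under DMSO and 442 genes and 6 members under DMXAA. Ifit1bl2 had 3 to 45 counts a library.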

Other observations

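Among the genes whose pattern was most like that of Ifit1 was Tbx2, which encodes a T-box transcription factor. In wild-type islets it went from 2.05 and 2.31 CPM to 15.02 and 17.4 CPM, and knockout-labelled islets held 2.47 and 2.55 CPM with solvent, then 2.71 and 1.70 CPM with DMXAA. The wild-type rise was 2.89 on the log2 scale (SE 0.27, edgeR adjusted p = 3.29e-05), and the response differed between genotypes by -3.05 (SE 0.44, adjusted p = 0.00256). Cmpk2, a mitochondrial nucleotide kinase gene, went from 28.0 ± 2.42 to 350.3 ± 0.172 CPM in wild-type islets.

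Irf1, an interferon regulatory factor gene, was the member of the interferon signalling list that differed between genotypes under DMSO. It was at 44.7 ± 8.67 CPM in wild-type and 87.7 ± 2.32 CPM in knockout-labelled islets (log2 difference 0.97, SE 0.16, edgeR adjusted p = 0.0289). Of the cap-related genes, Dcp2, which encodes an mRNA decapping enzyme, passed between genotypes under DMXAA, lower in knockout-labelled islets. Irf1 and Dcp2 were singled out after their values were seen.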
